A study of Equus caballus with 4 samples.

Results

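Integrins are the cell surface receptors by which cells hold on to the extracellular matrix. The integrins described here are those of 10 genes, the α subunits ITGA2, ITGA4, ITGA5, ITGA6, ITGA7 and ITGAV and the β subunits ITGB1, ITGB3, ITGB5 and ITGB6, written from here on in italics and lowercase. Their probes were all non-control probes whose gene name in the scanner files equals 1 of these symbols. The rule found 33 of 43603 probes, for 9 of 13349 named genes. No probe carried the name *itga7*.

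Gene expression was measured in primary satellite cells, the stem cells of skeletal muscle, grown from the semitendinosus muscle of young stallions, on day 3 of differentiation. HMB-treated cells were kept with 50 µM HMB (β-hydroxy-β-methylbutyrate, a leucine metabolite) for 24 h and received 3 mM H2O2 in the last 1 h, and control cells received the same H2O2 without HMB, so both groups were oxidatively stressed. On each of 4 arrays read in both colors the HMB-treated RNA was labeled with Cy5 and the control RNA with Cy3, and since the dyes were never swapped, treatment and dye cannot be told apart. According to the methods, 1 primary culture was picked by how well its cells survived and fused, and every array's label numbers its control as replicate 1, hence the 4 replicates need not be 4 horses or 4 controls, and the errors measure only the spread between arrays, which may be technical.

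An integrin is a pair of 1 α and 1 β subunit, each crossing the membrane once, with a large head outside the cell and a short tail inside. The head binds laminins, collagens, fibronectin or vitronectin, depending on the pair. The tail recruits talin, kindlin and further adaptors that couple the receptor to actin. In skeletal muscle, α7β1 is the chief laminin-binding integrin of the fiber, α5β1 binds fibronectin during early differentiation, and αv pairs with several β subunits to bind RGD-containing ligands and latent TGF-β.

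What each probe reads is seen in its sequence. The probes of 60 bases are printed from the scanner files, 5′ to 3′ along the transcript, for the integrins on which the results turn. In the α subunits the capitals mark bases that encode the membrane-proximal GFFKR motif, which helps to keep the receptor inactive. In *itgb6* they mark bases that encode an NxxY motif, the kind of tail motif that binds adaptor proteins.
*itga2* A_69_P028647: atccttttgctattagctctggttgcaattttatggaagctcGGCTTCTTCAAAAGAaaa
*itga5* A_69_P053576: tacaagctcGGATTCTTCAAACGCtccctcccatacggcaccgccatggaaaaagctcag
*itgav* A_69_P042577: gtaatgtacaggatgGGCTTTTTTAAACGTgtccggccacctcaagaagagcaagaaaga
*itgb6* A_69_P041938: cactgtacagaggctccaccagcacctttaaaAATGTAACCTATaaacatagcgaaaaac
*itga6* A_69_P042251: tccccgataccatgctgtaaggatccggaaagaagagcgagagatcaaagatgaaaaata

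The bases encoding GFFKR, with any codon for each residue, occurred on 3 integrin probes, those of *itga2*, *itga5* and *itgav* printed above. On all 43603 probes they occurred 6 times, or on 0.0138% along the transcript and 0.00229% on the other strand. The reading frame of the motif was free of stop codons on each of the 3 probes. The NxxY bases occurred on 2 *itgb6* probes that overlap by 40 bases, and on 5.54% of all probes along the transcript and 4.49% on the other strand. A match of letters is a description of the probe only. The *itga6* probe held neither motif, and which of the known α6 tail variants it reads was not analysed here.

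Of the 33 integrin probes, 23 were tested, because 1 or both dye channels stood well above background on all 4 arrays. The 10 others were too dim. No integrin spot was saturated or marked by the scanner software. A probe was called when limma's adjusted p was at most 0.05 and the fold change (FC) at least 1.3, which is 0.38 on the log2 scale. All ratios are log2 ratios of HMB-treated over control, so negative values mean less RNA with HMB. The members with probes had 1 to 6 each, and where a gene had several tested probes, the brightest represents it.

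Of the tested integrin probes, 9 were called, 8 lower and 1 higher with HMB. One of the 8, an *itgb6* probe, had only its control channel well above background on all 4 arrays. Where both channels had to be, that probe was left out and 8 were again called lower, since another probe then passed the threshold. Over all 24669 tested probes, 28.6% were called, 16.4% lower and 12.1% higher. By representative probe, 4 of 8 integrin genes were called, namely *itgb6*, *itga6*, *itgav* and *itga2*, all 4 lower. Over all 8319 tested named genes, 27.3% were called, 17.2% lower and 10% higher. The median log2 ratio of the 8 integrin genes was −0.35, beside −0.087 over all named genes. Since overlapping probes and subunits of 1 culture share their source, these counts describe the members and carry no test of their own.

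**Figure D1:**
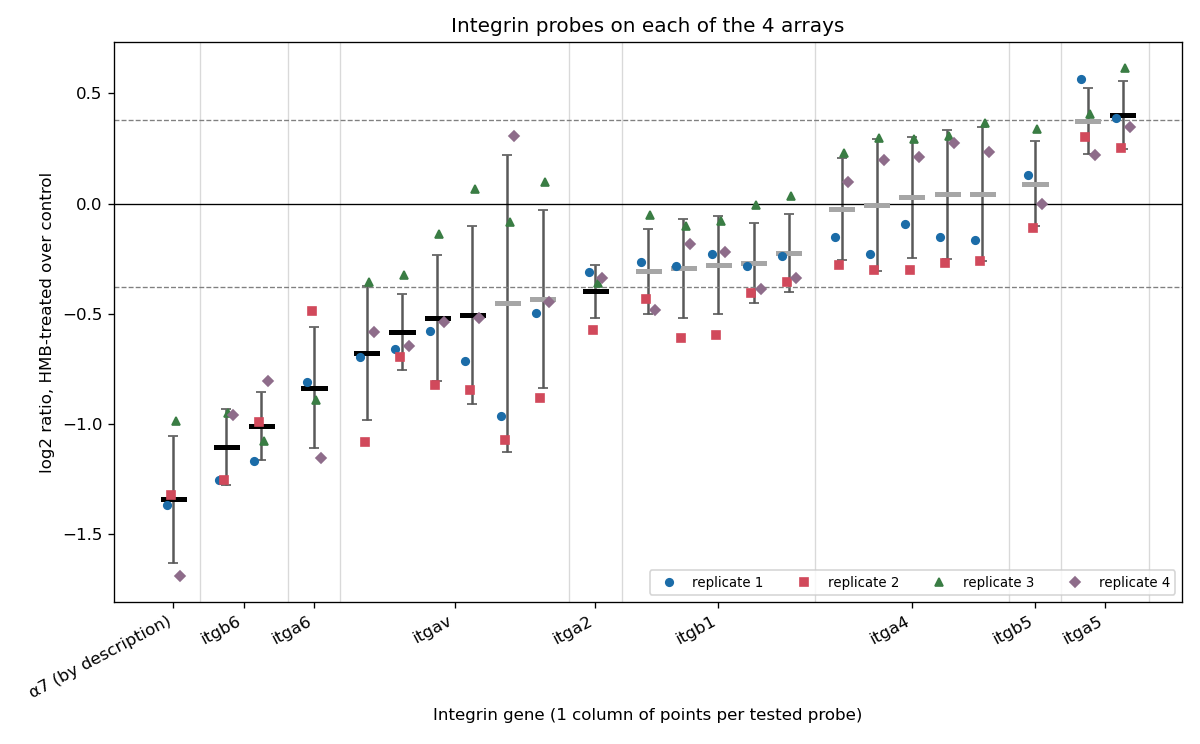
Log2 ratio of HMB-treated over control (vertical axis) for each tested integrin probe and for 1 probe described as integrin α7, grouped by gene (horizontal axis). Symbols are the 4 arrays, thick bars the mean (black where called, grey where not), thin bars the SD (n = 4), dashed lines an FC of 1.3. The left *itgb6* probe passed the filter through its control channel only, the other *itgb6* probe lies at −1.01, the *itga5* probes are the only pair above 0 on every array, and with scaling to spike-in RNA the representative *itga5*, *itga4* and *itgb5* values fall below 0.

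*itgb6* showed the largest fall of the named members. It encodes β6, which pairs with αv and is known as an epithelial receptor that activates latent TGF-β. Its probe lies at chr18:29266415-29266474 (EquCab1, minus strand). The control signals were 113, 119, 136 and 107 on replicates 1 to 4, and the HMB-treated signals were 50.4, 59.6, 64.7 and 61.5. Every HMB-treated signal was below every control signal. The log2 ratios were −1.17, −0.99, −1.08 and −0.80, with a mean of −1.01 ± 0.15 (SD, n = 4), an FC of 2.01 and an adjusted p of 2.05e-04 with limma. A neighboring probe, A_69_P041936, shares 20 of its bases with the first and passed the filter only through the control channel. Its HMB-treated channel was well above background on 1 array, so its ratio is not used as a second measurement of *itgb6*. The probe between them was well above background on 2 arrays in the control and on none with HMB, and was not tested. The signal of *itgb6* was low, and with normexp background correction its ratio was −0.32 and no longer called.

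The 3 genes whose RNA had the closest pattern to *itgb6* over the 4 arrays were found among 8311 other named genes by the root mean square distance of the log2 ratios. These were *slc35g1*, a membrane transporter, at a distance of 0.083, *ispd*, an enzyme of dystroglycan glycosylation, at 0.088, and *pawr*, a pro-apoptotic regulator, at 0.089. Their mean log2 ratios were −0.95, −1.01 and −0.95, respectively. No representative integrin probe was called higher, so no such neighbors are given for a rise.

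*itga6* also fell. Its product α6 is a laminin receptor subunit that pairs with β1 or β4. The probe lies at chr18:40085027-40085086 (EquCab1, plus strand). The control signals were 1330, 1201, 1684 and 1322, and the HMB-treated signals were 758, 856, 908 and 594, so the groups did not overlap. The log2 ratios were −0.81, −0.49, −0.89 and −1.15, with a mean of −0.84 ± 0.27 (SD, n = 4), an FC of 1.79 and a limma adjusted p of 0.0017. *itga6* was called under all 19 alternatives that were run, and it was the sole named member of which this holds.

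*itgav* encodes αv, the partner of β1, β3, β5, β6 and β8, and was measured by 6 tested probes on 2 transcript models. The representative probe spans an intron, at chr18:52066788-52067104 (EquCab1, plus strand). Its control signals were 194, 209, 206 and 198, and its HMB-treated signals were 120, 98.8, 161 and 132. All HMB-treated signals were lower than all control signals, with replicate 3 the nearest to its control. The log2 ratios were −0.69, −1.08, −0.36 and −0.58, giving −0.68 ± 0.30 (SD, n = 4), an FC of 1.60 and a limma adjusted p of 0.0050. The 6 probes averaged between −0.68 and −0.43, and 4 of them were called. The representative probe was not called by the methods' t-test (adjusted p = 0.060 after Benjamini-Hochberg, against limma's 0.0050) or with normexp, at −0.37. The 4 probes of the second transcript model lie nearer to the 5′ end and overlap each other.

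At the upstream *itgav* probes replicate 3 lay near 0. On A_69_P004764 the log2 ratios were −0.50, −0.88, 0.099 and −0.45 (limma adjusted p = 0.055), and on A_69_P004763 they were −0.72, −0.85, 0.067 and −0.52 (adjusted p = 0.034). On A_69_P004761, a probe across an intron, replicate 4 stood at 0.31 against −0.96, −1.07 and −0.083 on the others (limma adjusted p = 0.16). Hence the ratio of *itgav* was below 0 on all 4 arrays at both probes near its 3′ end and at 1 of the 4 probes upstream.

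*itga2* encodes the collagen receptor subunit α2. Its only tested probe crosses an intron at chr21:14689385-14689901 (EquCab1, minus strand). The control signals were 60.8, 63.1, 83.7 and 61.3, and the HMB-treated signals were 49.0, 42.4, 65.1 and 48.5. The ratio was below 0 on all 4 arrays, but the ranges of the groups overlapped, as replicate 3 was brighter in both channels. The log2 ratios were −0.31, −0.57, −0.36 and −0.34, with a mean of −0.40 ± 0.12 (SD, n = 4), an FC of 1.32 and a limma adjusted p of 0.0053. This FC lay just past the threshold, and without replicate 2 the value was −0.34 and not called. With normexp or no background correction it was −0.17 or −0.18, and neither was called. The 4 untested *itga2* probes had signals of 8.59 to 51.2 in the control and 5.97 to 36.8 with HMB, and no ratio is given for them.

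**Figure D2:**
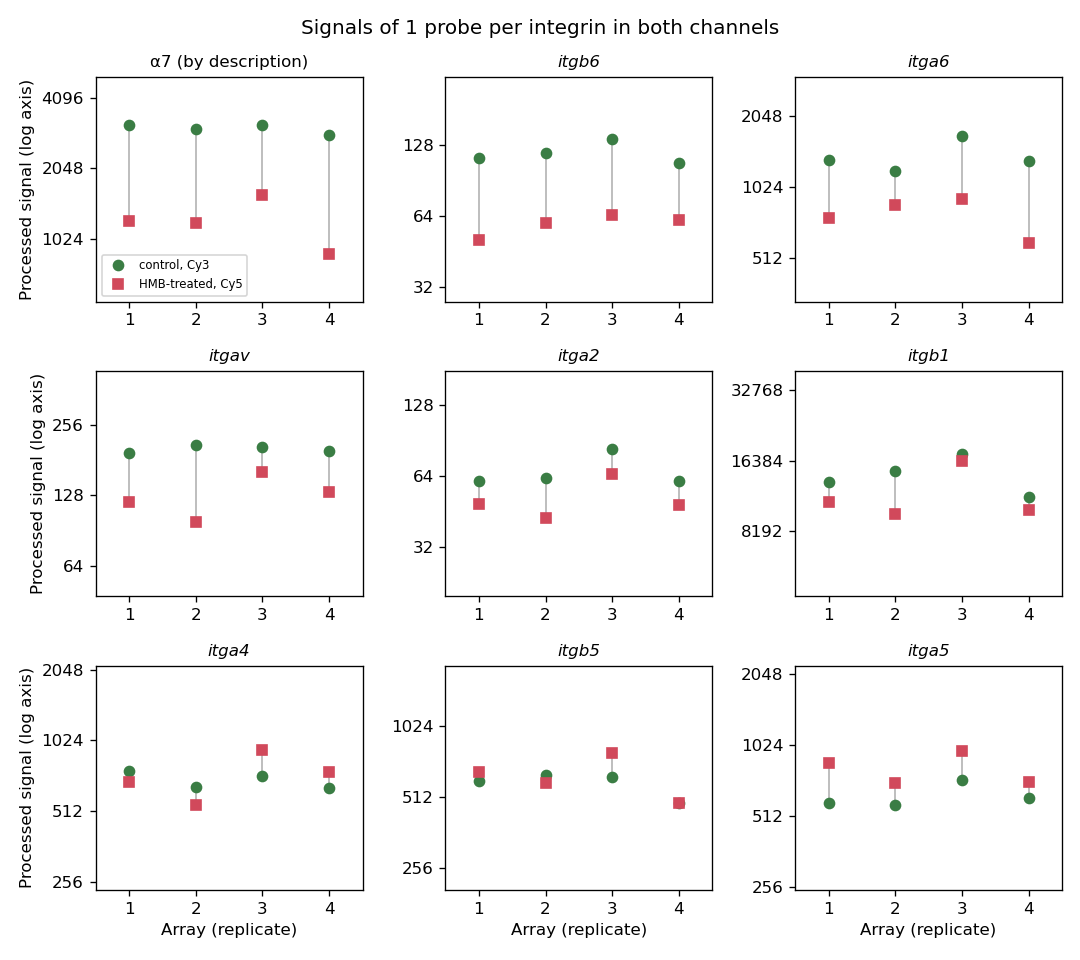
Processed signal of the control (green circles, Cy3) and HMB-treated cells (red squares, Cy5) on each array (horizontal axis), for the representative probe of 8 integrins and the probe described as integrin α7. The vertical axes are logarithmic, each spans a 9-fold range, and signals of different panels cannot be compared as levels. The HMB-treated signal lies under the control on all 4 arrays for the α7 probe, *itgb6*, *itga6*, *itgav*, *itga2* and *itgb1*, and above it on all 4 for *itga5*, whose mean falls to −0.041 with scaling to spike-in RNA.

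The plot of signals by array shows the calls as pairs of points on 1 array. The distance between the points of a pair is the log2 ratio of that array. The separation was wide for *itgb6* and *itga6* and narrow for *itga2* and *itgb1*.

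*itgb1* encodes β1, the shared partner of most matrix-binding α subunits. Its representative probe lies at chr29:3971893-3971952 (EquCab1, plus strand). The control signals were 13330, 14854, 17549 and 11420, and the HMB-treated signals were 10949, 9738, 16367 and 10071. The groups overlapped, though the HMB-treated signal was the lower of the pair on each array. The log2 ratios were −0.28, −0.61, −0.10 and −0.18, and the mean of −0.29 ± 0.22 (SD, n = 4) had a limma adjusted p of 0.045. The FC of 1.23 was under the threshold, so *itgb1* was not called. Its 95% confidence interval ran from −0.53 to −0.062 on the log2 scale. The 5 *itgb1* probes, placed in 2 stretches of the transcript 899 bases apart, averaged from −0.31 to −0.22, and 0 of the 5 were called.

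*itga5* stood on the other side of 0. Its product α5 pairs with β1 to form the classical fibronectin receptor. The representative probe crosses an intron at chr6:71271169-71271874 (EquCab1, minus strand). The control signals were 583, 573, 729 and 611, and the HMB-treated signals were 862, 706, 967 and 711. The ranges overlapped, but the HMB-treated signal was the higher on every array, by log2 ratios of 0.56, 0.30, 0.41 and 0.22. The mean of 0.37 ± 0.15 (SD, n = 4) had a limma adjusted p of 0.0092, and its FC of 1.295 was just under 1.3. The second *itga5* probe, at chr6:71270805-71270864, had log2 ratios of 0.39, 0.25, 0.62 and 0.34. Its mean of 0.40 ± 0.15 (SD, n = 4) had an FC of 1.32 and was called (limma adjusted p = 0.0075). Both probes thus gave nearly the same ratio on opposite sides of the threshold, and with scaling to spike-in RNA the representative probe stood at −0.041.

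That scaling moved the median of all tested probes by −0.41, from −0.068 to −0.48. It shifts all probes of an array alike, so distances to the median stay the same by construction. Relative to the median, *itga5* was higher by 0.44 and *itgb6* lower, at −0.94. That these distances do not change is no check of either ratio.

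*itga4* and *itgb5* were not called. The α4 subunit pairs with β1 as a receptor for VCAM1 and fibronectin. Its 5 probes averaged between −0.026 and 0.044. On the representative probe the log2 ratios were −0.16, −0.26, 0.37 and 0.23, with a mean of 0.044 ± 0.30 (SD, n = 4; limma adjusted p = 0.78) and a 95% confidence interval from −0.24 to 0.33. All 5 *itga4* probes were below 0 on replicates 1 and 2 and above 0 on replicates 3 and 4, and the mean turned negative with array weights, with scaling to spike-in RNA, and without replicate 3 or 4.

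The β5 subunit pairs with αv as a vitronectin receptor. At its single probe, chr19:30974776-30974835 (EquCab1, plus strand), the log2 ratios were 0.13, −0.11, 0.34 and −0.0019. The mean was 0.090 ± 0.19 (SD, n = 4; limma adjusted p = 0.43) with a 95% confidence interval from −0.12 to 0.30, and with scaling to spike-in RNA it was −0.32.

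*itgb3* was at the limit of detection. Its product β3 pairs with αv and with the platelet subunit αIIb. All 5 probes are shifted by 1 base each, so they share 56 bases, in capitals in the brightest of them, and amount to 1 measurement.
*itgb3* A_69_P000308: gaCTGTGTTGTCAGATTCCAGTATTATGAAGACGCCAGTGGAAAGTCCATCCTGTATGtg
They lie at chr11:15988896-15988959 (EquCab1, minus strand). The control signals ranged from 4.18 to 13.8 and were not well above background on any array. The HMB-treated signals ranged from 7.49 to 43.7 and were well above background on at most 2 arrays of a probe. No fold change, nor a bound on one, is given for these probes. No probe had the HMB-treated channel well above background on all 4 arrays, and *itgb3* was not tested.

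The *itga7* gene is missing by name. The probe A_69_P053976 carries only a transcript identifier as its name, but its description in the files reads integrin alpha 7. It was looked up after the values were seen and lies outside the rule. It is shown here since α7 is the integrin most closely tied to muscle.
α7 A_69_P053976: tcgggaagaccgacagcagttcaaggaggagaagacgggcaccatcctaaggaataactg
It is placed at chrUn:195010919-195010978 (EquCab1, minus strand), among sequence not assigned to a chromosome. The control signals were 3148, 3014, 3142 and 2852, and the HMB-treated signals were 1221, 1207, 1584 and 884. All 4 HMB-treated signals were far below all 4 control signals. The log2 ratios were −1.37, −1.32, −0.99 and −1.69, with a mean of −1.34 ± 0.29 (SD, n = 4), an FC of 2.53 and a limma adjusted p of 2.99e-04. The mean ratio was larger in size than that of any tested probe of the 10 members, and the probe was called under all 18 alternatives run for it, between −1.76 and −1.17.

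The arrays differed in how far the integrins moved. Of the 23 tested integrin probes, 18 had their highest ratio on replicate 3 and 19 their lowest on replicate 2. Over all tested probes, 30.0% were highest on replicate 3 and 24.0% lowest on replicate 2. The median of the 8 representative probes was −0.30, −0.53, −0.23 and −0.26 on replicates 1 to 4. Many of these probes overlap others of the same gene, so the counts of probes weigh a few genes heavily. By representative probe, *itgav*, *itga4*, *itgb1* and *itgb5* were highest on replicate 3. By contrast, *itga2* and *itga5* were highest on replicate 1, *itga6* on replicate 2 and *itgb6* on replicate 4. The probes of 1 gene were thus not independent of each other, and the pattern was not shared by all integrins.

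The other 16 integrin subunits all had probes, but 5 were tested. Of these, 80% were called, beside 27.3% of all named genes. *itga1* and *itga9* were called higher, *itgae* was called lower, *itgb7* was called lower on a probe measured in the control only, and *itga2b* was not called. The collagen receptor subunit *itga1* had log2 ratios of 0.37, 0.46, 0.63 and 0.41, with a mean of 0.47 ± 0.11 (SD, n = 4; limma adjusted p = 0.0027). *itga9*, a subunit for tenascin and osteopontin, had a mean of 0.40 ± 0.22 (SD, n = 4; limma adjusted p = 0.014), which became 0.30 and was not called without replicate 3, and turned to −0.011 with scaling to spike-in RNA. The other of the 2 tested *itga9* probes stood at 0.24 and was not called. *itgae*, best known from intraepithelial lymphocytes, had log2 ratios of −0.72, −1.18, −0.96 and −0.72, with a mean of −0.89 ± 0.22 (SD, n = 4; limma adjusted p = 7.11e-04). *itgb7*, its partner on lymphocytes, passed the filter only through the control channel, with signals of 29.3, 41.2, 46.7 and 36.4. Its HMB-treated channel was well above background on 1 array, so its call lower is no measured fall, and 3 other integrins were called where both channels had to pass. The leukocyte subunits *itgal*, *itgam*, *itgax* and *itgb2* were among the 11 that were too dim to be tested.

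Of 27 integrin ligands, 18 were tested, and 5 were called, 2 higher and 3 lower. This is 27.8%, near the 27.3% of all named genes. Their median log2 ratio was 0.088. The largest fall was that of *spp1*, which encodes osteopontin, an RGD ligand of αv integrins, with log2 ratios of −1.17, −1.83, −1.11 and −1.05 and a mean of −1.29 ± 0.36 (SD, n = 4; limma adjusted p = 7.06e-04). *lama2*, the laminin α2 chain of the muscle basement membrane, gave −1.19, −1.44, −0.81 and −1.06, with a mean of −1.12 ± 0.26 (SD, n = 4; limma adjusted p = 4.56e-04). The other of the 2 tested *lama2* probes was also called but stood at −0.63. *lama3*, a chain of epithelial laminin, had a mean of −0.60 ± 0.39 (SD, n = 4; limma adjusted p = 0.017) and was not called without replicate 2, at −0.54. The 4 tested *lama3* probes had means from −0.68 to −0.43, and 2 of them were called. Higher values were found for *edil3*, a secreted αv ligand, at 0.83 ± 0.15 (SD, n = 4; limma adjusted p = 4.50e-04). They were also found for *cyr61*, a matricellular ligand, at 0.44 ± 0.23 (SD, n = 4; limma adjusted p = 0.012), although *cyr61* was not called without replicate 1 or without replicate 2, at 0.37 each. Fibronectin (*fn1*) was not called, with a mean of −0.17 ± 0.34 (SD, n = 4; limma adjusted p = 0.32).

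Of 31 genes of the adhesion complex on the inner side of the membrane, 18 were tested and 4 were called, 2 in each direction, with a median of 0.032. The share called was 22.2%, beside 27.3% of all named genes. *itgb1bp2*, which encodes melusin, a muscle-restricted protein that binds the β1 tail, had the largest fall of all lists named here. Its control signals were 1602, 1611, 1967 and 1408, and its HMB-treated signals were 465, 512, 682 and 504. The groups lay far apart, with log2 ratios of −1.79, −1.65, −1.53 and −1.48, a mean of −1.61 ± 0.14 (SD, n = 4), an FC of 3.06 and a limma adjusted p of 2.41e-05. Vinculin (*vcl*), which links talin to actin, gave −0.41 ± 0.14 (SD, n = 4; limma adjusted p = 0.0058). *parva*, the α-parvin that binds integrin-linked kinase, gave 0.47 ± 0.20 (SD, n = 4; limma adjusted p = 0.0068), and the LIM domain protein *fhl2* gave 0.56 ± 0.25 (SD, n = 4; limma adjusted p = 0.0057). The kinase itself (*ilk*) and kindlin-2 (*fermt2*) were not called, at 0.084 ± 0.13 and −0.026 ± 0.075 (SD, n = 4), respectively. Kindlin-3 (*fermt3*) was not called by its representative probe, with an FC of 1.2997. Of its 5 tested *fermt3* probes, with means from 0.38 to 0.50, 3 were called. *actn1* was not called by its representative probe, at −0.14, but 1 of its 2 tested probes was, at −0.46. With scaling to spike-in RNA the rises of *itga1*, *cyr61*, *parva* and *fhl2* shrank to 0.053, 0.024, 0.052 and 0.15 and were not called. By the methods' t-test, *itga9*, *lama3*, *cyr61*, *parva* and *fhl2* were not called, and with normexp *edil3* (0.30), *parva* (0.33), *itga9* (0.20) and *vcl* (−0.26) were not. *vcl* was not called either with median centering (−0.33), GC correction (−0.35) or loess without background correction (−0.26).

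**Figure D3:**
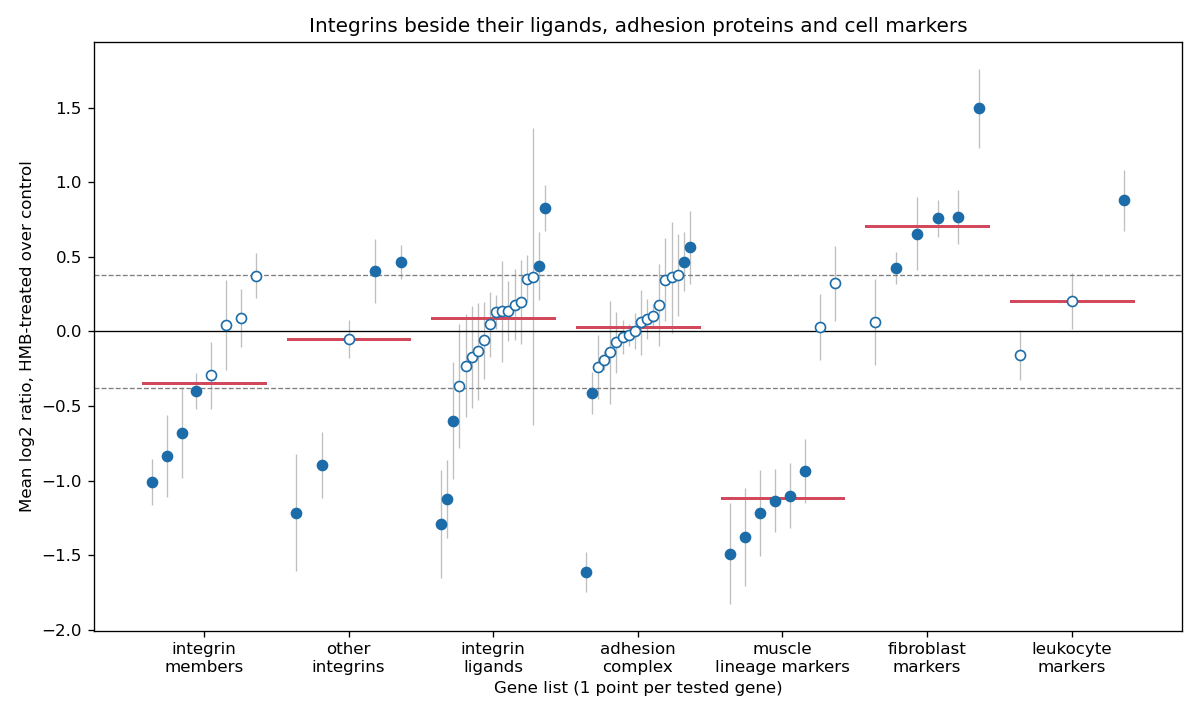
Mean log2 ratio of HMB-treated over control (vertical axis) with SD (n = 4) for the tested genes of each list (horizontal axis), filled where called and open where not. Red bars are list medians and dashed lines an FC of 1.3. Integrin members and muscle lineage markers have medians of −0.35 and −1.12, ligands and the adhesion complex lie near 0, and fibroblast markers are at 0.71. Scaling to spike-in RNA lowers every point by 0.41 and turns those between 0 and 0.41 negative, among the integrins *itga9*, *itga5*, *itga4* and *itgb5*.

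Markers of the cells in the culture differed between the groups as well, the muscle markers toward lower and the fibroblast markers toward higher values. Of 8 tested muscle lineage markers, 6 (75%) were called lower, beside 17.2% of all named genes. The median of the muscle markers was −1.12. Among those called were *des* (desmin) at −1.22 ± 0.29 and the muscle regulator *myf5* at −1.49 ± 0.34 (SD, n = 4). *myod1* and *myog*, which mark myogenic cells, were well above background and not called, at 0.32 ± 0.25 and 0.031 ± 0.22. The other of the 2 tested *myod1* probes stood at −0.11 and was not called. The summed signal of the muscle markers was 169656 to 191451 in the control and 64754 to 102980 in HMB-treated cells. Most of it came from *myh3* and *acta1*, both called lower, at −1.38 ± 0.33 and −1.10 ± 0.22 (SD, n = 4). Of 6 tested fibroblast markers, 5 (83.3%) were called higher, beside 10% of all named genes. The fibroblast markers had a median of 0.71 and were led by *pdgfra* at 1.49 ± 0.26 (SD, n = 4). Their summed signal was 197887 to 226398 in the control and 228426 to 347672 in HMB-treated cells. Most of this sum was the signal of *col3a1*, whose representative probe was not called, at 0.064 ± 0.29 (SD, n = 4). That was the lowest mean of its 7 tested *col3a1* probes, which reached 0.42, and 3 of the 7 were called. The part of the muscle and fibroblast markers in the integrin results was not tested. In RNA from whole cultures, fewer cells of a type and less RNA per cell cannot be told apart.

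Of 5 endothelial markers with a probe, 0 were tested, and only *tek* passed background, in the HMB-treated channel of 1 array. Of 6 leukocyte markers with a probe, 3 were tested, and *cd68* was called higher, at 0.88 ± 0.20 (SD, n = 4). That is 33.3%, beside 10% of all named genes. *cd14*, at 0.20 ± 0.19, and *ms4a1*, at −0.16 ± 0.17 (SD, n = 4), were not called. The summed signal of the 3, most of it from *cd14*, was 3857 to 4737 in the control and 4314 to 6466 in HMB-treated cells. Their part in the integrin results, too, was not tested. The T cell marker *cd3e* was not above background on any array.

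The dependence of the integrin ratios on the processing is shown for 8 genes. The widest moves came from scaling and background correction. Scaling to spike-in RNA shifted every gene down by 0.41. Background correction with normexp brought the dim *itgb6* and *itga2* probes toward 0, to −0.32 and −0.17, whereas the brighter *itga6* probe stayed at −0.65.

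**Figure D4:**
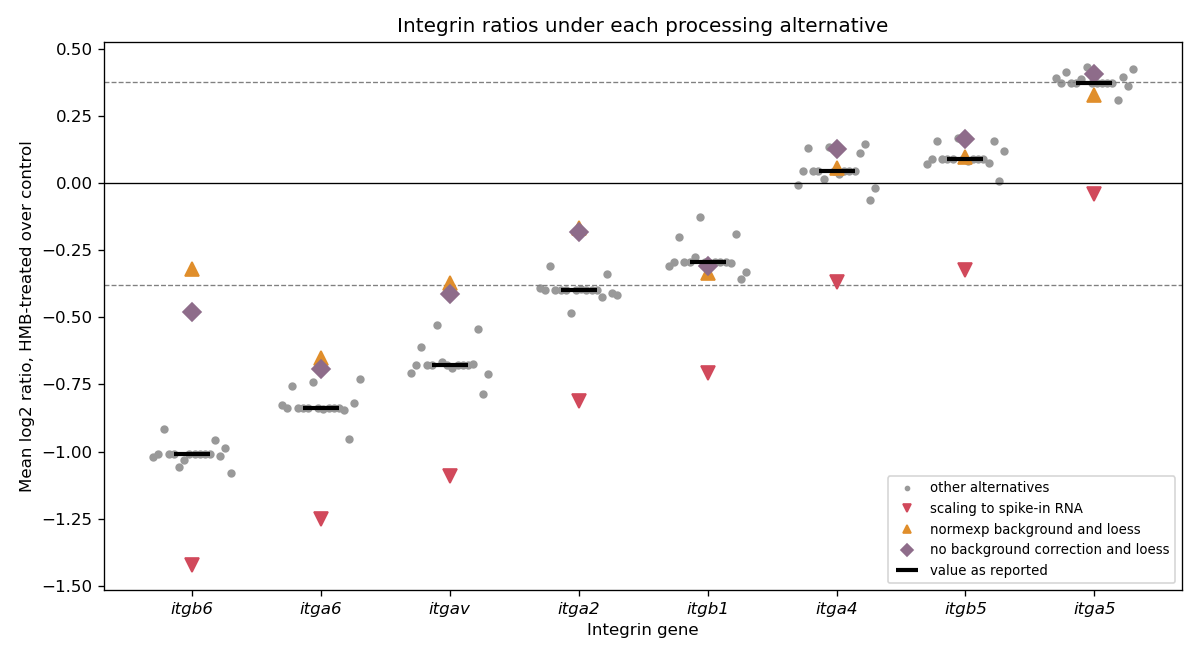
Mean log2 ratio of HMB-treated over control (vertical axis) of 8 integrin genes (horizontal axis) as reported (black bars) and under each processing alternative (points). Dashed lines mark an FC of 1.3. *itga6* stays beyond the lower line throughout, *itgb6* and *itga2* approach 0 with normexp, and *itga5*, *itga4* and *itgb5* fall below 0 with scaling to spike-in RNA.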

How the data were processed

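HMB-treated and control RNA were compared on 4 two-color Agilent horse arrays, and each array gave 1 replicate. For the intensity values, the authors deposited scanner files with background-subtracted and lowess-normalized signals of each channel. Each spot also has a log10 value, deposited by the authors, of normalized Cy5 signal divided by normalized Cy3 signal. Per the file headers they were written by Feature Extraction 10.10.1.1, with probe positions on EquCab1. The study's methods name another version of that software. Signals at or below background carry a surrogate in the deposited files. The authors' table of normalized log10 ratios was used as an alternative only. Columns of samples that could not be mapped numbered 0.

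A change of base turned the deposited log10 values into log2 ratios here. Non-uniform or outlying spots, as marked by the software, and controls were dropped. Spots of 1 probe were averaged. For testing, Cy3 or Cy5 had to be well above background on each of the 4 arrays, with 3 or more ratios left. Ratios were tested against 0 with limma 3.58.1 (intercept, empirical Bayes) in R 4.3.3 with the data.table package (version 1.17.8), and Benjamini-Hochberg correction ran over all 24669 tested probes. Calls needed an adjusted p up to 0.05 with an FC from 1.3, the limits of the study's own t-test. Confidence intervals use limma's standard error.

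A channel had 55.2% to 61.8% of its non-control spots well above background, and pairwise correlations of the arrays ranged from 0.84 to 0.92. The number of arrays limits the precision.

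All 10 members are described with all probes. From the lists of other integrins, ligands and adhesion complex, the called genes with the 3 largest rises and the 3 largest falls are named, and beside the member with the largest fall the 3 genes of most similar pattern. Other genes of the lists are mentioned as background, chosen after their values were seen. The members and lists were chosen with earlier results of these data known, so no test over a list was made. Files give no exon for a probe, and a probe was taken to span an intron when its genomic span exceeded 60 bases.

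On simulated data (24776 probes, of which 200 had a set change) the tests were checked. limma recovered 85.5% with 10 false calls, the t-test 33.5% with 1 and limma's treat 63.5% with 0. The set changes were larger than the ratios of *itgav*, *itga2* and *itga5*, and noise was drawn independently for each probe. These rates therefore do not carry over to ratios smaller than the set changes or to deviations that probes share. The 16 alternatives covered the test (t-test, treat, trend with robust moderation, array weights), the ratios (loess after normexp, offset 50, or without background correction, median centering, scale normalization, spike-in RNA, probe GC content, the authors' table), the filters (none, both channels, marked spots kept), the mean over a gene's tested probes and leaving out each replicate in turn.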

Additional observations from a re-analysis of the deposited data

Results flagged for a closer look

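Among the 23 tested integrin probes, 1 had an array far from the other 3. On A_69_P042576, the second *itgav* probe at the 3′ end (chr18:52067090-52067149, EquCab1), replicate 3 stood at −0.32 against −0.66, −0.70 and −0.65. The gap to its neighbor was 0.862 of the range, beyond Dixon's critical value at 95%. Such gaps arise by chance in about 1 of 20 groups of 4. The probe is not the representative of *itgav*, and its direction was the same on all 4 arrays.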

How the results depend on the processing

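Over the alternatives, *itga6* kept its direction and its call, between −1.25 and −0.65. Scaling to spike-in RNA reversed *itga4* (−0.37), *itga5* (−0.041), *itgb5* (−0.32) and *itga9* (−0.011) and brought *itgb1* past the thresholds (−0.71). It called 18 integrin probes lower and 0 higher. *itga4* also reversed with array weights (−0.0082). With treat, *itga2* (−0.40) and *itgav* (−0.68) were not called, leaving 2 genes and 3 probes lower and 0 probes higher. The methods' t-test lost *itgav* (−0.68; adjusted p = 0.060, 0.0050 with limma) and called 5 probes lower. With normexp, *itga2* (−0.17), *itgav* (−0.37) and *itgb6* (−0.32) were not called, leaving 1 gene and 1 probe lower and 0 probes higher. An offset of 50 is added to both channels there, which pulls dim probes toward 0. Loess without background correction lost *itga2* (−0.18) and called 3 probes lower, and correction for GC content lost *itga2* (−0.31). *itga5* was called with array weights (0.39), loess without background correction (0.41), median centering (0.43), GC correction (0.41) and the mean over its probes (0.39), that is 1 gene higher, and 2 probes higher with array weights, median centering and GC correction. Without the filter on dim probes, 4 probes were called higher, 3 of them of *itgb3*. These 3 overlap and had no control signal well above background, so they are no measured rise. Of the dim probes, *itga2* A_69_P028653 and A_69_P028651 and *itgb6* A_69_P041937 were then called lower. The *itgav* probes A_69_P004762 and A_69_P004763 were no longer called. Leaving out 1 replicate gave −0.43 to −0.34 for *itga2* (not called without replicate 2), −0.064 to 0.15 for *itga4* (below 0 without replicate 3 or 4), 0.31 to 0.42 for *itga5* (called without replicate 2 or 4), 0 to 1 genes and 0 to 2 probes called higher, 3 to 4 genes and 6 to 10 probes called lower, and 4 to 7 adhesion genes (7 without replicate 1). Other integrins called numbered 2 with treat, normexp and loess without background correction (4 as reported). Ligands called numbered 3 with the t-test, treat and no filter, 8 with median centering and 9 with spike-in scaling (5 as reported). Adhesion genes called numbered 2 with the t-test and normexp, 1 with treat and 9 with spike-in scaling (4 as reported). Over all 24669 tested probes, 7046 were called (42.5% higher), 5030 with the t-test (41.7%), 2822 with treat (54.6%), 3539 with normexp (55.0%), 4440 with loess alone (60.1%), 7280 with median centering (53.9%), 6716 with GC correction (55.8%) and 16753 with spike-in scaling (8.28%). Leaving out replicate 1, 2, 3 or 4 called 7155, 6714, 6641 or 7046 of the 24669 probes. With no filter on dim probes, 7184 of 43602 probes were called. Except where given, the causes were not tested.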
